A study of Rangifer tarandus with 4 samples.

Results

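The granzyme and perforin genes of the cattle annotation deposited with this series are described here as gene models: their copies, positions, exons, introns, coding lengths and untranslated regions (UTRs). Genes were chosen by symbol, as every gene whose symbol starts with GZM or equals PRF1. This gave 7 of 21880 genes, carrying 6 symbols: GZMA, GZMB on 2 genes, GZMH, GZMK, GZMM and PRF1. All 7 are among the 21861 genes annotated as protein-coding. Coordinates are those of the assembly ARS-UCD1.2, counted from 1, and belong to cattle, not to the animal sampled.

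Granzymes are serine proteases stored in the secretory granules of cytotoxic T cells and natural killer cells. When such a cell meets its target, the granules are emptied into the contact zone. Perforin forms pores in the target's membrane, through which granzymes reach the cytosol and cut their substrates. In blood, these genes are widely used as markers of cytotoxic lymphocytes.

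The study collected blood mononuclear cells from reindeer (Rangifer tarandus) on day 3 after wounding. There were 4 single-cell libraries, 2 from blood of the saphenous vein (labelled back) and 2 from blood of the distal antler velvet (labelled antler), each loaded with about 12000 cells. No genetic modification or drug is named for either group, and each of the 2 codes in the sample names occurs once in each group, with no statement of whether a code is an animal. Libraries were made from polyadenylated RNA with a method that reads the 3′ end of transcripts. Where the reads fall on these cattle gene models was not examined. Expression per cell was not analysed here. The text therefore gives no level, no depth and no comparison of antler with back, and the cell type was not checked against its markers.

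The 7 genes lay at 4 loci on 4 chromosomes. A locus was a run of chosen genes with gaps of at most 1 Mb, continued outward while the next gene had the exon pattern described further on. Chromosome 21 held both GZMB genes and GZMH, chromosome 20 held GZMA and GZMK, and GZMM on chromosome 7 and PRF1 on chromosome 28 each stood alone. Including genes inside the loci that the symbol rule did not choose, the loci held 16 genes. One of these, on chromosome 20, is written gzmA in lower case, and 8 on chromosome 21 have no symbol.

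**Figure D1:**
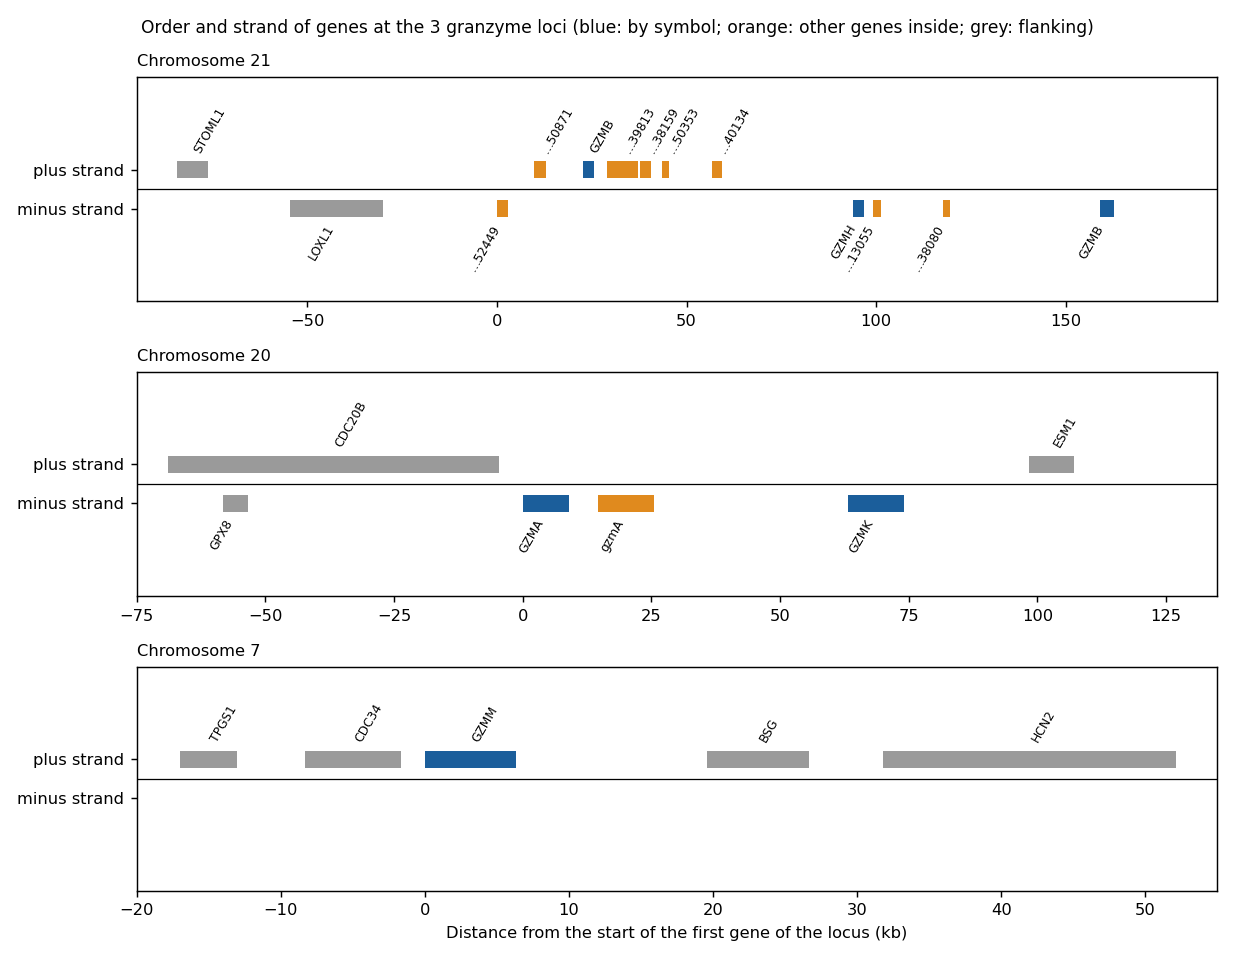
Genes at the 3 granzyme loci by distance in kb from the start of the first gene of each locus, with plus-strand genes above and minus-strand genes below the line (blue, chosen by symbol; orange, other genes inside the locus; grey, flanking genes; unnamed genes by the last digits of their identifier). On chromosome 21, 3 blue genes stand among 8 orange ones, and STXBP6, 147542 bases to the right, lies outside the plot.

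Perforin comes first, as the pore former. PRF1 (ENSBTAG00000001008, chromosome 28, 26783286 to 26788539, minus strand) spanned 5254 bases. Its flanking genes were NODAL and PALD1 on one side and ADAMTS14 and TBATA on the other. PRF1 had 3 coding exons of 11, 540 and 1126 bases, together 1677 bases or 559 residues, which made it the longest coding sequence of the 7. The last of these exons held 67.1% of the coding bases, against a median of 37.0% over the 1836 protein-coding genes with 3 coding exons, whose median coding length was 627 bases. Both introns had phase 2, meaning that they interrupt a codon after its second base. A total of 87 protein-coding genes, or 0.398% of them, had 3 coding exons with these phases.

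The pair of PRF1 transcripts shared the second and last coding exons and the 3′ UTR of 512 bases, and differed at the start. In the first, 11 coding bases stood in a first exon of 116 bases; in the other, 8 coding bases stood in a first exon of 535 bases. Those first exons shared 0 bases and their 5′ ends were 646 bases apart, while the 3′ ends were the same. The 5′ UTR was accordingly 105 bases in one and 527 bases in the other. A read from the 3′ end cannot tell the transcripts apart, since they are the same there. No gene followed PRF1 on its strand for 139402 bases, up to NODAL, while on the plus strand PALD1 ended 20687 bases away.

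On chromosome 20, GZMA, gzmA and GZMK followed each other on the minus strand within 74.1 kb, with CDC20B and GPX8 on one side and ESM1 and ENSBTAG00000003200 on the other. GZMA, the tryptase of the family, which cuts after basic residues (ENSBTAG00000021958, 24009814 to 24018787), had 1 transcript. Its 5 coding exons of 67, 139, 142, 270 and 159 bases gave 777 coding bases, or 259 residues. The introns between them had 3505, 1773, 198 and 1987 bases. GZMA had the longest 3′ UTR of the granzymes apart from GZMM, 690 bases, and the shortest 5′ UTR of the 7 genes, 41 bases. Its 3′ end was 4552 bases from CDC20B on the opposite strand and 53442 bases from the next gene on its own strand, GPX8.

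The gene written gzmA (ENSBTAG00000027865, 24024507 to 24035304) lay 5719 bases from GZMA. It is outside the symbol rule, which was applied to letters as written, and the annotation therefore holds GZMA once and gzmA once. Its coding exons of 61, 148, 142, 273 and 150 bases gave 774 coding bases, 3 fewer than GZMA, and shared with GZMA only the length of the third. By summed differences in coding exon length gzmA was nearest to GZMK, at 24 bases, with GZMA close behind at 27. By summed differences in intron length gzmA was nearer to GZMA, at 6297 bases, than to GZMK, at 8498. Its 3′ UTR had 154 bases, against 690 in GZMA. In the whole annotation, 2 groups of symbols differed only in the case of letters, this one and BOLA with BoLA.

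GZMK, also a tryptase (ENSBTAG00000005164, 24073111 to 24083959), was the longest of the 7 genes with a span of 10849 bases. Its main transcript had coding exons of 64, 148, 151, 270 and 159 bases, together 792 bases or 264 residues. The second intron of 6655 bases was the longest in any of the 7 genes, and the first, of 271 bases, the shortest of the 3 first introns on chromosome 20. The other GZMK transcript had 4 exons, all coding in part, with 720 coding bases and a 5′ UTR of 496 bases against 60. Its first exon of 636 bases took in all 124 bases of the main transcript's first exon and ran unbroken over the first intron to the end of the second coding exon, and the 5′ ends were 93 bases apart. Its 3′ UTR was 251 bases against 359, and the 3′ ends were 108 bases apart, so these transcripts differ at both ends.

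The chromosome 21 locus ran from 34717625 to 34880233, 162.6 kb, between LOXL1 (30032 bases away) with STOML1 beyond it on one side, and STXBP6 (147542 bases away) with NOVA1 beyond it on the other. It held 11 genes: 3 with a granzyme symbol and 8 without any symbol. The order was ENSBTAG00000052449 on the minus strand, then ENSBTAG00000050871, a GZMB, ENSBTAG00000039813, ENSBTAG00000038159, ENSBTAG00000050353 and ENSBTAG00000040134 on the plus strand. After a gap of 34487 bases came GZMH, ENSBTAG00000013055, ENSBTAG00000038080 and the other GZMB, all on the minus strand. The plus-strand genes were thus next to each other, and so were the last 4 minus-strand genes.

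GZMB is the granzyme that cuts after aspartate and activates caspases. Its symbol stood on a plus-strand gene (ENSBTAG00000053015, 34740311 to 34743331) and on a minus-strand gene (ENSBTAG00000010057, 34876603 to 34880233), 133.3 kb and 7 genes apart. In the annotation, 190 of 16808 named protein-coding genes, or 1.13%, share their symbol with another gene, and 87 symbols stand on more than 1 gene. The plus-strand GZMB had coding exons of 52, 148, 136, 258 and 159 bases, together 753 bases or 251 residues. The minus-strand GZMB had 55, 148, 136, 258 and 141 bases, together 738 bases or 246 residues. The pair therefore had the same length in the 3 middle exons and differed by 21 bases in the first and last.

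The introns of the GZMB genes differed more than the exons. They had 194, 491, 190 and 331 bases on the plus strand and 1243, 486, 197 and 629 bases on the minus strand, a summed difference of 1359 bases, most of it in the first intron. The 5′ UTR was 954 bases in the plus-strand gene, the longest of the 7, and 238 bases in the other. The 3′ UTRs were close, with 105 and 97 bases, and were the shortest of the 7 genes. Downstream, the plus-strand GZMB met the next gene on its strand after 3191 bases, the shortest such distance of the 7, and the minus-strand GZMB after 39414 bases.

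An unnamed gene, ENSBTAG00000013055 (34816886 to 34818847, minus strand), had the same 5 coding exon lengths as the plus-strand GZMB. Its introns of 194, 487, 190 and 335 bases differed from those of that gene by 8 bases in sum. By the lengths of its exons and introns the plus-strand GZMB was thus nearer to this gene than to the gene that shares its symbol. The unnamed model has no annotated UTR, whereas GZMB has one at both ends. Equal lengths say nothing of equal sequence, which was not compared here.

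GZMH, a relative of GZMB with chymase-like cutting in humans (ENSBTAG00000010828, 34811403 to 34814493, minus strand), was the exception among the granzymes in its exon pattern. Its first coding exon of 54 bases is a whole number of codons, so that the first intron had phase 0 where the other 5 granzymes had phase 1. The transcript with 5 coding exons had 54, 161, 136, 258 and 141 bases, 750 in all or 250 residues, and shared the last 3 lengths with the minus-strand GZMB. A second transcript had 4 coding exons of 54, 161, 136 and 444 bases, 795 in all or 265 residues, and is the longer one. Its last coding exon runs on past the 258 bases of the fourth into an intron of the other transcript, which it retains. Phases of 0, 2, 0 and 0 with 5 coding exons were found in any transcript of 34 protein-coding genes, 2 of them in these loci, GZMH and ENSBTAG00000039813.

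**Figure D2:**
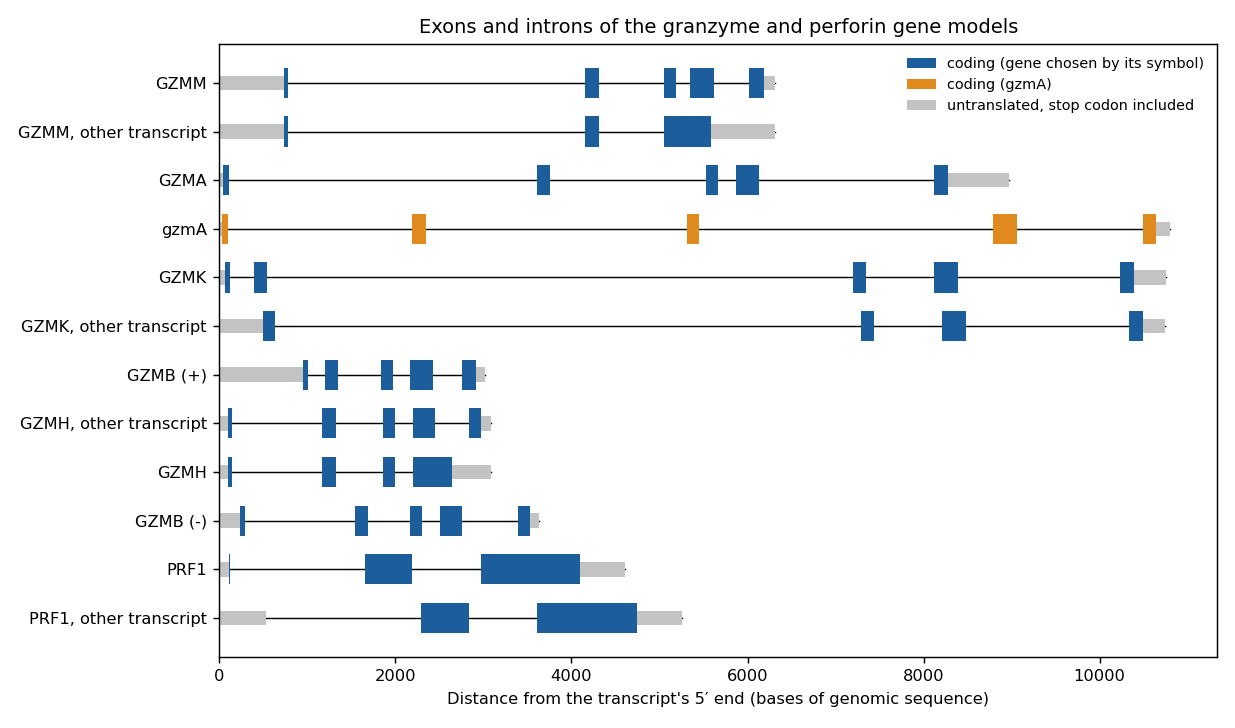
Exons (boxes) and introns (lines) of all 11 transcripts of the 7 genes and of gzmA, drawn from the 5′ end in bases of genomic sequence, with coding parts tall and untranslated parts low and grey. The 5 coding exons of GZMA, gzmA and GZMK are spread over long introns, those of the GZMB and GZMH genes stand close together, and PRF1 has 3 coding exons of which the last is the longest; its first coding stretch of 8 bases in the other transcript is too short to be visible.

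The unnamed genes of the chromosome 21 locus had coding lengths near those of the granzymes, with 1 exception. Such lengths are not particular to granzymes. PRTN3, CFD and AZU1 on chromosome 7, described further on, had 768, 777 and 783 coding bases. Of the 8 unnamed genes, 7 had 5 coding exons, with coding lengths from 726 to 789 bases. The longest of these, in ENSBTAG00000039813, comes from a transcript with no annotated start codon, and the next had 765 bases. ENSBTAG00000052449 and ENSBTAG00000050871 lie before the first granzyme symbol and were counted in the locus only because they have the exon pattern. Their 5 coding exons were thus fixed by that choice. Of all 21861 protein-coding genes, 1435 had 5 coding exons. The exception, ENSBTAG00000038159 (34755350 to 34758193), had 3 coding exons of 32, 283 and 141 bases, 456 in all or 152 residues, and began 603 bases after the end of ENSBTAG00000039813. ENSBTAG00000052449 (34717625 to 34720610) and ENSBTAG00000050871 (34727438 to 34730647) stood on opposite strands, 6827 bases apart, with the same coding exon lengths: 61, 151, 133, 255 and 141 bases. Their second introns were also equal, at 732 bases, while their first introns had 614 and 593 bases.

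ENSBTAG00000040134 (34774233 to 34776915) came within 6 bases of the plus-strand GZMB in summed coding exon length difference, and ENSBTAG00000038080 (34835231 to 34837188) within 12 bases. ENSBTAG00000050353 (34761185 to 34763098) had the shortest coding sequence among those with 5 coding exons, 726 bases. In coding exon lengths it lay nearest to the minus-strand GZMB, at 24 bases, against 33 to the plus-strand GZMB. In summed intron length difference it was nearer to the plus-strand GZMB, at 65 bases against 1370. ENSBTAG00000039813 (34746523 to 34754746) differed from the rest in carrying 10 transcripts, the most that any gene of the annotation has, a number reached by 64 protein-coding genes. A start codon was annotated in 6 of its 10 transcripts. The transcript used here, with the longest coding sequence and the exon pattern of the granzymes, is one of the 4 without, so its first coding exon of 91 bases may be incomplete. No transcript of this gene with a start codon has that pattern. Its first and second exons were joined by introns of 5 different lengths. The other 7 unnamed genes had 1 transcript each.

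GZMM, a granzyme that cuts after methionine and leucine (ENSBTAG00000002100, chromosome 7, 43181976 to 43188286, plus strand), stood 1634 bases after CDC34, with TPGS1 before that and BSG and HCN2 after it. Its coding exons of 40, 163, 136, 264 and 171 bases gave 774 coding bases, or 258 residues. It had the shortest first and the longest second and last coding exons of the granzyme loci's genes with this pattern. The first intron had 3372 bases, near the 3505 of GZMA, and the others had 744, 160 and 402 bases. BSG followed on the same strand after 13275 bases.

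The exon pattern shared by the granzymes was 5 coding exons with intron phases 1, 2, 0 and 0. Phase is the number of bases of a codon that lie before the intron, so the first intron falls after the first base of a codon, the second after the second, and the last pair between codons. In the transcript with the longest coding sequence, 5 of the 6 granzyme genes had it, all but GZMH. It was found in 41 protein-coding genes, which is 0.188% of all of them and 2.86% of the 1435 genes with 5 coding exons. Those 1435 genes had 81 different phase patterns, of which 1, 1, 1 and 1 was the most frequent, in 78 genes.

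Of the 41 genes, 13 lay inside the granzyme loci: 5 granzymes, gzmA and 7 of the unnamed genes of chromosome 21. A further 4 lay downstream of GZMM on chromosome 7, between GZMM and CFD, in a stretch of 236.8 kb with 16 genes that was singled out after its values were seen. They were PRSS57, AZU1, PRTN3 and CFD, serine proteases or related proteins of neutrophil granules and, for CFD, of the complement system. ELANE, the neutrophil elastase in the same stretch, has the pattern in one transcript but 7 coding exons in its longest coding one. The other 24 genes lay elsewhere, 4 of them unnamed, and include both a protease, the mast cell tryptase TPSB2 on chromosome 25, and a gene of another kind, the glutathione transferase GSTT1.

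With the phases the same, coding exon lengths varied less among these 17 genes than among the 24 elsewhere. In the 17, the second coding exon had 139 to 163 bases, the third 127 to 151, the fourth 231 to 273 and the last 141 to 207. Elsewhere the second alone ran from 22 to 2581 bases. Total coding length was 726 to 849 bases in the 17 and 435 to 4020 bases in the 24. Within the granzyme loci, the second coding exon had exactly 148 bases in 9 of 13 genes and the last had exactly 159 bases in 7, with 141 in 3. Since the loci were continued by the phase pattern, the phases of the outermost genes were used in choosing them, but lengths were not. The genes of the chromosome 7 stretch were singled out after their values were seen, so the ranges over the 17 are a description.

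**Figure D3:**
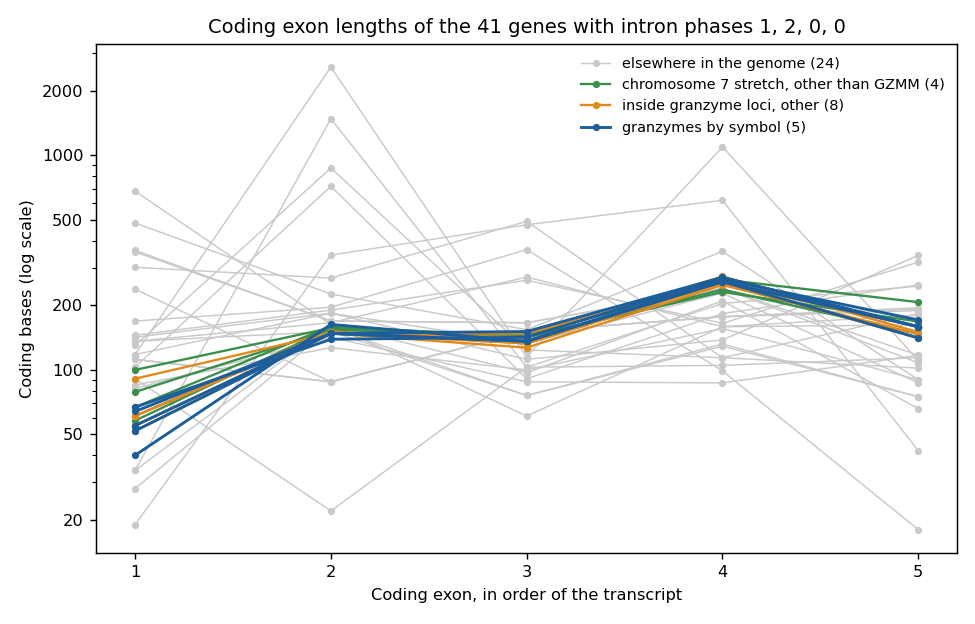
Coding bases (log scale) of coding exons 1 to 5 in the 41 genes with 5 coding exons and intron phases 1, 2, 0 and 0, one line per gene (blue, granzymes by symbol; orange, other genes of the granzyme loci; green, the chromosome 7 stretch; grey, elsewhere). The coloured lines run together, with the fourth exon at 231 to 273 bases, and the grey lines scatter.

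Only the 41 genes with the pattern were ranked by likeness of coding exon lengths to a granzyme, and GZMH was left out of this comparison. Among those not chosen by symbol, the nearest 10 were 8 of the granzyme loci and 2 of the chromosome 7 stretch. CFD, complement factor D, differed from the plus-strand GZMB by 24 bases in sum, as little as gzmA from GZMK. PRTN3, proteinase 3, was 69 bases from GZMA. PRSS57 and AZU1 followed at 81 and 87 bases, and the next gene, CCNQ on chromosome X, was 186 bases from the minus-strand GZMB. Of all 820 pairs among the 41 genes, 2 had 5 equal coding exon lengths, and both were on chromosome 21.

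The total intron length differed between the chromosome 20 and chromosome 21 loci. On chromosome 20, the introns of the 3 genes summed to 7463, 9542 and 9834 bases. On chromosome 21, those of the 9 genes with the pattern summed to 1183 to 2555 bases, with a median of 1206. The ranges of these totals do not overlap, though those of intron 1 and of intron 3 taken singly do. Of the coding exons, only the fourth had ranges that do not overlap, at 270 to 273 bases on chromosome 20 and 249 to 258 on chromosome 21. GZMM lay in between at 264. For each of the other coding exons the ranges overlap, as they do for total coding length. Genes of one locus are neighbours and are not independent of each other, so no test was made.

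A first intron of exactly 194 bases was found in 4 genes of chromosome 21: the plus-strand GZMB, ENSBTAG00000039813, ENSBTAG00000013055 and ENSBTAG00000038080. Among all 19123 protein-coding genes with introns, 11 had a first intron of that length. In those 4 genes the second intron had 474 to 491 bases and the third 187 to 190. The length of 194 was picked because it recurred at this locus, so these counts are a description. Across all 5-coding-exon genes the median intron total was 9061 bases, which is above every gene of the chromosome 21 locus and close to GZMK.

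**Figure D4:**
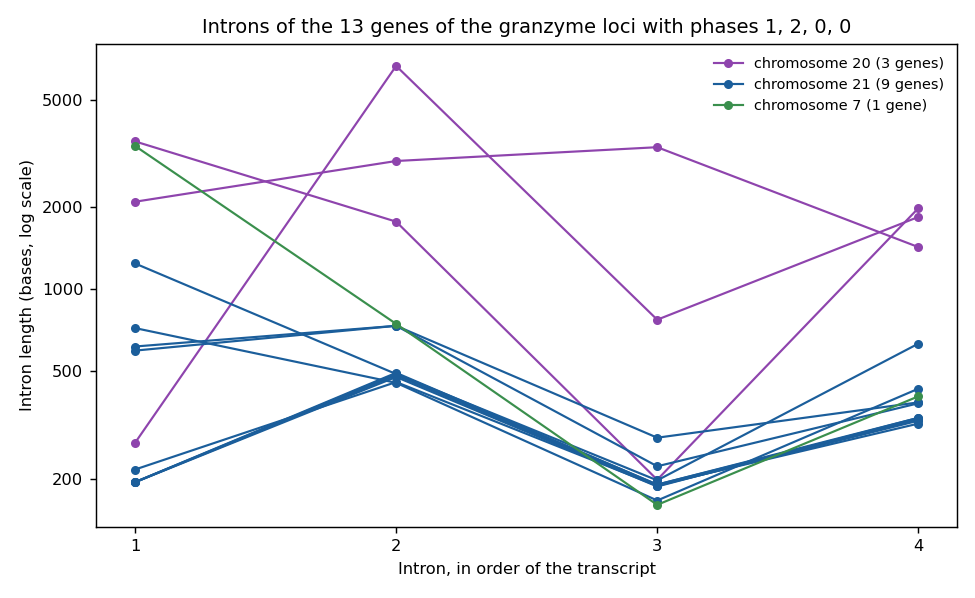
Length in bases (log scale) of introns 1 to 4 in the 13 genes of the granzyme loci with phases 1, 2, 0 and 0, one line per gene, coloured by chromosome. In introns 2 and 4 the chromosome 20 genes lie above all chromosome 21 genes, at 1773 to 6655 and 1429 to 1987 bases against 451 to 732 and 319 to 629, and 4 chromosome 21 genes start at 194.

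Every one of the 7 genes had a 3′ UTR, where 65.5% of all protein-coding genes had one, and every one had a 5′ UTR, where 66.4% had one. With 7 genes such counts describe these models and set them apart from nothing. The longest 3′ UTR over transcripts was 721 bases in GZMM, 690 in GZMA, 512 in PRF1, 448 in GZMH, 359 in GZMK, 105 in the plus-strand GZMB and 97 in the minus-strand GZMB. The median was 448 bases, against 626 over all genes with a 3′ UTR. In the transcript with the most exons it was 120 bases, against 551. The 5′ UTRs ran from 41 bases in GZMA to 954 in the plus-strand GZMB, with a median of 496 bases against 208. That direction depended on the transcript: in the one with the longest coding sequence the median was 105 bases against 171, since GZMK then has 60 bases and PRF1 105. None of the 7 genes has exon bases in common with a neighbour on its strand, as 1.75% of protein-coding genes have, or on the opposite strand.

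The longest 3′ UTRs of GZMM and GZMH came from transcripts that retain introns. More than 1 transcript was annotated for 4 of the 7 genes (GZMM, GZMK, GZMH and PRF1), against 37.7% of protein-coding genes. In 3 of these 4 (GZMM, GZMK and GZMH), an exon of one transcript held a whole intron of the other, which was so in 19.2% of all genes with more than 1 transcript. In GZMK this was the first intron. It lies between coding exons of 64 and 148 bases in the main transcript and in the 5′ UTR of the retaining one. The retaining transcript has 720 coding bases against 792, and 0 bases of its 3′ UTR are intron in the main transcript. The GZMM transcript with 3 exons retained 2 introns. Of its 3′ UTR of 721 bases, 199 are coding or stop codon in the spliced form, 402 are intron and 120 are the 3′ UTR of the spliced form. The GZMH transcript with 4 exons retained 1 intron, and its 448 bases divide into 144 of coding or stop codon, 190 of intron and 114 of 3′ UTR.

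In GZMM and GZMH the retaining and the spliced transcript end at the same base, so the 3′ end was the same. The retaining transcript has more exon bases, 2195 against 1633 in GZMM and 1339 against 960 in GZMH. Part of the retained intron sequence is coding in it, and its coding sequence has 245 residues in GZMM and 265 in GZMH. In the transcripts with 5 coding exons, the 3′ UTR was 120 bases in GZMM and 114 in GZMH, near the 105 and 97 bases of the GZMB genes. By that measure GZMA with 690 bases and GZMK with 359 had the long 3′ UTRs among the granzymes, both on chromosome 20. In those transcripts the GZMM protein has 258 residues and the GZMH protein 250.

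Of the 8 unnamed genes on chromosome 21, 3 had a 3′ UTR, of 102 bases in ENSBTAG00000040134, 172 in ENSBTAG00000052449 and 178 in ENSBTAG00000050871. The same 3 had a 5′ UTR, of 61, 123 and 298 bases. Over all 5053 unnamed protein-coding genes, 18.0% had a 3′ UTR. The 5 without any UTR end at their stop codon. They include 3 of the 4 genes with a first intron of 194 bases, the plus-strand GZMB being the exception.

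**Figure D5:**
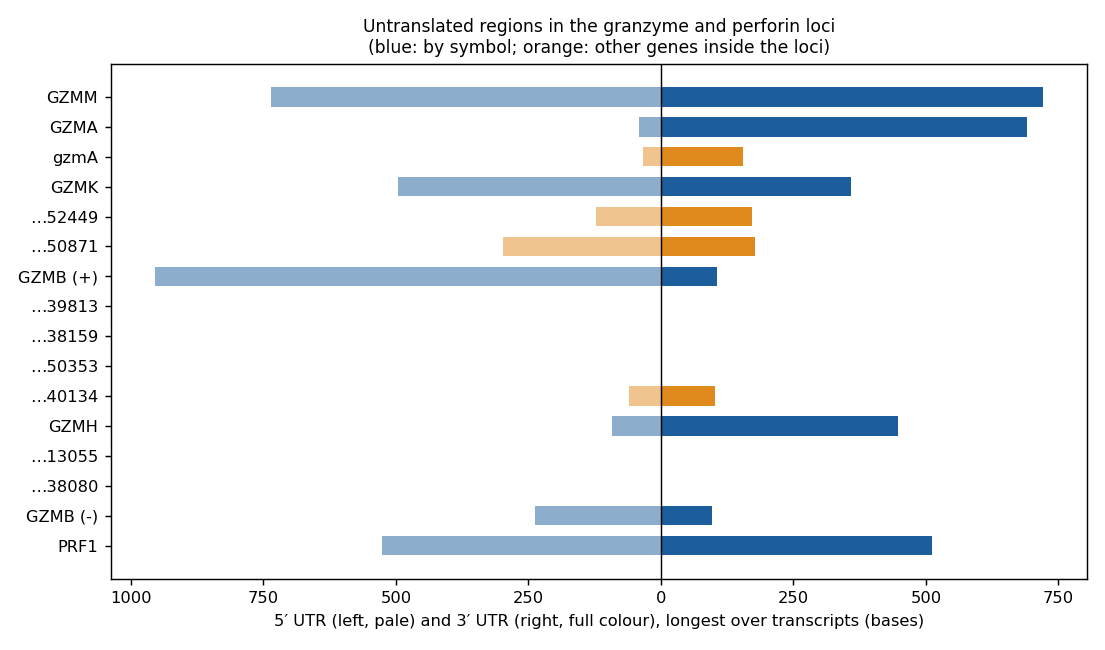
Longest 5′ UTR (left, pale) and longest 3′ UTR (right, full colour) in bases of each gene of the granzyme and perforin loci (blue, chosen by symbol; orange, other genes inside the loci). All 7 blue genes, gzmA and 3 unnamed genes have bars on both sides, and 5 unnamed genes have none.

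Genes related to granzymes and perforin by protein family, or listed with them by function, were looked up in 7 lists by exact symbol. None of the genes matched outside the list of granule serine proteases had the granzyme exon pattern. Of 12 granule serine proteases, 4 were matched, ELANE, PRTN3, AZU1 and CFD, with 3′ UTRs from 58 bases in CFD to 118 in AZU1 and a median coding length of 780 bases. All 4 had the pattern in at least 1 transcript. The symbols CTSG, CMA1, MCPT1, MCPT2, MCPT3, MCPT4, MCPT8 and BDMD1 had no match by exact symbol. Whether any unnamed gene described here is one of them was not checked.

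Among genes of granule cargo and processing, 9 of 10 symbols were matched and all 9 had a 3′ UTR, from 141 bases in CTSW to 1970 in CTSC, the protease that trims granzymes to their active form. NKL was not matched. Of the 9 genes of granule transport and release, 8 had a 3′ UTR, from 60 bases in STXBP2 to 2114 in RAB27A, a small GTPase that docks granules at the membrane, and VAMP7 had none. Of 6 genes listed under granzyme inhibitors, 5 were matched, and SERPINA3 was not. Their 3′ UTRs ran from 123 bases in SERPINB6 to 1324 in SERPINB9, the inhibitor of granzyme B. Whether the product of each other listed gene inhibits a granzyme was not checked.

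Of the 16 genes listed under substrates of granzymes, 15 had a 3′ UTR, the shortest of 47 bases in the exonuclease TREX1, and GSDMB had none. Whether a granzyme cuts the product of each listed gene was not checked. Perforin relatives with a membrane attack domain had 10 of 11 symbols matched, MPEG1 being the exception. Their median coding length was 2325 bases with 11.5 coding exons, against 1677 bases and 3 coding exons in PRF1. Of these 10, 7 had a 3′ UTR, from 354 bases in the complement component C8A to 1026 in BRINP1, and ASTN1, BRINP2 and BRINP3 had none. The 7 matched transcription factors of cytotoxic cells all had one, from 256 bases in STAT4 to 2437 in PRDM1, and NFIL3 was not matched.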

How the data were processed

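The 4 libraries were grouped by labelled tissue. The submitters' processing notes name Cell Ranger 3, STAR and Seurat, and do not say which step each did. The only table used was the deposited gene annotation, whose values are positions in bases and reading frames of cattle gene models, per the file headers on the assembly ARS-UCD1.2. Its use with reads of reindeer is not described in the labels. Neither counts nor sequences were analysed, so depth is unknown and no sequence is printed.

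From the features, Python 3.11.15 computed coding length (without the stop codon), exons, introns, phases, UTRs and neighbours. The main transcript was that with the longest coding sequence. The scripts were tested on a made annotation with known answers. Results are counts and medians beside those over all genes, with no test. Figures were drawn with matplotlib 3.10.9.

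The genes named were all those chosen by symbol, all others inside their loci and 2 flanking genes on each side. Also named were the 10 genes nearest in coding exon lengths among those with the exon pattern, and the unmatched, UTR-less and extreme genes of each list. Others named (ELANE, PRSS57, AZU1, CCNQ, GSTT1, TPSB2, BOLA) were chosen after their values were seen. One gene of the lists is not reported here. The genes and lists were chosen with earlier results of these data known.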

Additional observations from a re-analysis of the deposited data

How the results depend on the processing

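Of 26 alternatives to 13 results, 23 stayed within 1.5 times the reported value. In the transcript with the most exons, an alternative added after seeing the data, the median 3′ UTR of the 7 genes was 120 bases in place of 448, because the intron-retaining transcripts of GZMM and GZMH drop out. In the transcript with the longest coding sequence, also added after seeing the data, the median 5′ UTR was 105 bases in place of 496. Counting neighbours on either strand, the median distance to the next gene downstream was 20687 bases in place of 39414. Ignoring the case of letters gave 8 genes, gzmA included. With at least 200 bases required, 5 of 7 genes had a 3′ UTR. Between the first and last granzyme symbol of chromosome 21 stood 6 unnamed genes, against 8 in the continued locus. No paired analysis was possible because the annotation belongs to no sample. Reindeer gene models may differ in copy number, order and length, and were not analysed here.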

Other observations

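Counting any transcript of a gene, the pattern of 5 coding exons with intron phases 1, 2, 0 and 0 was found in 53 genes, 18 of them in the granzyme loci or the chromosome 7 stretch.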
